A study of Mus musculus with 24 samples.

Results

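The genes of MHC class I antigen presentation were followed through 24 RNA sequencing libraries. Each was made from sorted hematopoietic stem cells (HSCs) of mice, which reside in the bone marrow and renew every blood lineage. The set holds 10 genes of the 55487 gene IDs counted, and was chosen by name. It comprises the heavy chains H2-K1, H2-D1, H2-Q4, H2-Q6 and H2-Q7, the light chain B2m, both chains of the peptide transporter (Tap1 and Tap2), tapasin (Tapbp) and the immunoproteasome subunit Psmb8. All 10 were found, and all 10 passed the filter on low counts in each of the 3 comparisons. The series concerns PUS10, a pseudouridine synthase that isomerises uridine in RNA, in HSC aging. Cells overexpressing PUS10 (PUS10-OE, n = 3) were set against vector controls (Vector, n = 3). Cells in which the microRNA miR-139 was knocked down (miR139-KD, n = 6) were set against cells with a non-target control (NTC, n = 6). Cells labelled as knockout of Pus10 (Pus10-KO, n = 3) were set against wild-type cells (Pus10-WT, n = 3). All libraries were made by Smart-seq2, which copies polyadenylated RNA into full-length cDNA and does not mark the strand. The labels give no strain, age, sex or sorting gate, do not say how the overexpression or the knockdown was delivered, and name no further allele or agent.

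Class I molecules display peptides from inside the cell to CD8+ T cells and natural killer cells. A polymorphic heavy chain pairs with beta-2 microglobulin, encoded by B2m, in the endoplasmic reticulum. Proteasomes cut proteins into peptides, and Psmb8 replaces a constitutive subunit in the interferon-induced form. The TAP transporter, a dimer of the Tap1 and Tap2 products, carries the peptides across the membrane, and tapasin holds the empty class I molecule at the transporter until a peptide is bound. H2-K1 and H2-D1 encode the classical chains present on nearly all nucleated cells. H2-Q4, H2-Q6 and H2-Q7 belong to the Q region of non-classical chains, and H2-Q7 encodes a Qa-2 antigen of the cell surface.

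The libraries held 9.87 M to 47.3 M (mega) counts in genes. Pus10 itself was 257 ± 23.7 CPM (counts scaled to library size) in PUS10-OE and 75.9 ± 20.2 in Vector (SD, n = 3 each), and 32.9 ± 7.72 in miR139-KD and 35.9 ± 6.09 in NTC (n = 6 each). It was not lower in the libraries labelled Pus10-KO, with 35.2 ± 1.31 CPM there and 28.4 ± 7.68 in Pus10-WT (n = 3 each), so the name of that group rests on the label. HSC markers were detected in every group, with 0 of 12 at a count of 0 throughout a group. RNA of other cell types was also present. In the miR139-KD experiment, the summed level of 8 granulocyte markers ranged from 1268 to 17167 CPM in miR139-KD and from 1475 to 18323 CPM in NTC, and that of 7 erythroid markers from 1001 to 9572 CPM in miR139-KD and from 640 to 11499 CPM in NTC. Levels below are CPM after TMM scaling, edgeR's correction for library composition, within each experiment, so levels of different experiments can be set side by side only roughly, and a difference between experiments cannot be told apart from a difference in preparation.

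B2m was the most abundant of the genes in all 6 groups, and H2-Q4 the least. Per kilobase of merged exons, B2m averaged 7406 ± 748 CPM in PUS10-OE and 6526 ± 352 in Vector, 3885 ± 307 in miR139-KD and 3643 ± 453 in NTC, and 7067 ± 269 in libraries labelled Pus10-KO and 6910 ± 183 in Pus10-WT. H2-K1 and H2-D1 followed in every group. Per kilobase, H2-K1 averaged 494 ± 75.5 CPM in PUS10-OE, 793 ± 73.1 in miR139-KD and 1529 ± 174 in libraries labelled Pus10-KO, and H2-D1 757 ± 131, 670 ± 80.7 and 1737 ± 118 in the same 3 groups. The ranges of mean ± SD of these neighbours overlapped in miR139-KD and Pus10-KO, and not in PUS10-OE. At the low end, Tap1 had 12.8 ± 4.64 CPM per kilobase in PUS10-OE, 40.1 ± 7.65 in miR139-KD and 40.8 ± 4.47 in libraries labelled Pus10-KO, and Tap2 had 5.1 ± 0.642, 17 ± 3.63 and 19.5 ± 6.31. H2-Q4 averaged 0.484 ± 0.492 CPM per kilobase in PUS10-OE, 8.26 ± 3.66 in miR139-KD and 7.36 ± 1.73 in libraries labelled Pus10-KO. Between these ends, H2-Q6, H2-Q7, Tapbp and Psmb8 changed places from group to group. Psmb8 and H2-Q7 had 102 ± 10.4 and 105 ± 16.4 CPM per kilobase in miR139-KD, and Psmb8 and Tapbp 93.5 ± 5.26 and 89.8 ± 6.76 in libraries labelled Pus10-KO, in both cases closer than their SDs.

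**Figure D1:**
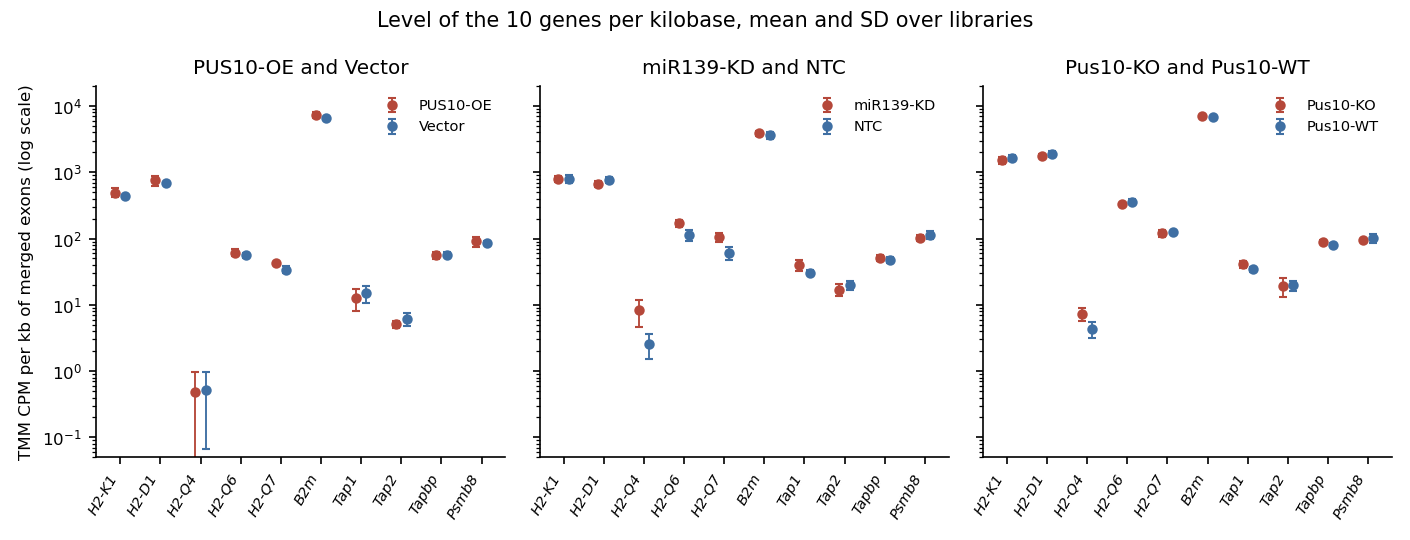
Level of each gene as TMM CPM per kilobase of merged exons (vertical log axis) in the 2 groups of each experiment, as the mean over libraries with the SD as bars (n = 3, 6 and 3 per group; a lower bar that passes below 0 runs off the axis). B2m stands highest and H2-Q4 lowest in all 6 groups, and H2-Q4 falls below 1 in the PUS10-OE experiment.

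The place of H2-Q7 depends on the length used. Its merged exons span 4265 bases, while its longest protein-coding transcript has 1523. Per kilobase of that transcript, H2-Q7 stood at 293 ± 45.9 CPM in miR139-KD and 170 ± 38.1 in NTC, above H2-Q6 at 172 ± 21.3 in miR139-KD and 114 ± 20.8 in NTC. Per kilobase of merged exons H2-Q6 stood above H2-Q7 in both groups. The total over 20 listed heavy chain genes of the H2 complex was 3705, 3774 and 4776 CPM in PUS10-OE and 3760, 3808 and 3644 CPM in Vector. In the miR139-KD experiment it ran from 4436 to 5738 CPM in miR139-KD (median 5480) and from 4822 to 6439 CPM in NTC (median 4945). In the third experiment it was 10913, 11078 and 12328 CPM in libraries labelled Pus10-KO and 12143, 13583 and 11196 CPM in Pus10-WT. B2m did not follow the same order of experiments. The ratio of summed heavy chain CPM to B2m CPM was 0.538 to 0.834 in PUS10-OE and 0.627 to 0.723 in Vector, 1.37 to 1.75 in miR139-KD and 1.51 to 1.78 in NTC, and 1.72 to 2.09 in libraries labelled Pus10-KO and 1.92 to 2.22 in Pus10-WT.

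Of the 10 genes, 9 lie on chromosome 17 in the H2 complex, and B2m lies on chromosome 2 (122147686 to 122153083, plus strand, GRCm38). H2-Q4 (ENSMUSG00000035929.11), H2-Q6 (ENSMUSG00000073409.12) and H2-Q7 (ENSMUSG00000060550.16) are protein-coding genes on the plus strand at 35379617 to 35385290, 35424850 to 35430055 and 35439155 to 35443773. H2-K1 (ENSMUSG00000061232.16) lies on the minus strand at 33996017 to 34000347, and H2-D1 (ENSMUSG00000073411.11) on the plus strand at 35262730 to 35267499. Heavy chain genes resemble each other, so the counting could split their reads among copies. Of the distinct runs of 50 bases in the transcripts of each gene, 9.63% for H2-K1, 12.8% for H2-D1, 36.4% for H2-Q4, 35% for H2-Q6 and 26.5% for H2-Q7 also occur in another gene. For runs of 100 bases the shares were 0.957%, 3.59%, 14.1%, 13% and 12%. H2-Q6 shared most with H2-Q7 (13.9% of its 50-base runs), and H2-Q7 with H2-Q10 (14%). H2-Q4 shared most with the overlapping antisense gene Gm11131 (15.3%), and without strand the reads of this pair cannot be told apart. Tap1 overlaps Psmb9, Tap2 overlaps Gm15821 and Gm20496, Tapbp overlaps Gm19412, and Psmb8 overlaps Gm20496. None of the 50-base runs of B2m occurs in another gene. The counts of H2-Q4, H2-Q6 and H2-Q7 taken singly are therefore uncertain.

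Upstream sequences of the 5 heavy chain genes are shown so that the letters of the H2-Q chains, called in miR139-KD, and of the classical chains, not called there, can be read side by side. Whether the 2 kinds of chain differed in their response was not tested, and neither was any part of these sequences in it. The sequences are 100 bases each, from RefSeq, build GRCm38.p6, 5′ to 3′ on the strand of the gene, with capitals for the matches to the NF-kB type motif (GGGNNTTNC), the interferon response type motif (GAANNGAAA) and the cyclic AMP response type motif of class I promoters (TGACGC). They come from chr17:34000374-34000473 (minus strand) for H2-K1, and from chr17:35262908-35263007, chr17:35379428-35379527, chr17:35424662-35424761 and chr17:35439007-35439106 (plus strand) for H2-D1, H2-Q4, H2-Q6 and H2-Q7.
H2-K1: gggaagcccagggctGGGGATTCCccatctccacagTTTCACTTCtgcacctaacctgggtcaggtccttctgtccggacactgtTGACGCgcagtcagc
H2-D1: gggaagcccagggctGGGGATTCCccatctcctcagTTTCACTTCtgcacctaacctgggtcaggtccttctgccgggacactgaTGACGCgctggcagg
H2-Q4: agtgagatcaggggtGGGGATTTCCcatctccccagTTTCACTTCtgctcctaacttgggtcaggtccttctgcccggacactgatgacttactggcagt
H2-Q6: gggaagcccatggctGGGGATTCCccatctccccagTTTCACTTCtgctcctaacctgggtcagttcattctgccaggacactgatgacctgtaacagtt
H2-Q7: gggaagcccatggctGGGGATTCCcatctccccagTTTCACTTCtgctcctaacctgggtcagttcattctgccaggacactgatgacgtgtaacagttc

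Over the 100 bases, H2-K1 and H2-D1 matched at 93% of positions, H2-K1 and H2-Q6 at 83%, and H2-Q4 and H2-Q6 at 79%, position by position with no gaps. H2-Q7 matched H2-K1 at 39%, H2-D1 at 38%, H2-Q4 at 33% and H2-Q6 at 42% in the same count. In H2-Q7 the interferon type match starts 20 bases after the NF-kB type match, and in H2-K1 21 bases after it, so the letters that follow are offset by 1. All 5 windows hold the interferon type and the NF-kB type motif in the same order. In H2-Q4 2 overlapping NF-kB type matches were found, on neighbouring bases. At the place, 49 bases after the interferon type match, where H2-K1 and H2-D1 read TGACGC, H2-Q7 reads TGACGT (C6T), H2-Q6 reads TGACCT (G5C and C6T) and H2-Q4 reads TGACTT (G5T and C6T), counted from 1 at the first T, with the H2-K1 base first. H2-Q4 also holds TGACGC on the other strand, 31 bases after its start site. Searched on both strands in 300-base promoters (250 bases before the start site and 50 after), the motifs occurred in 7.52% (interferon type), 15.2% (NF-kB type) and 7.40% (TGACGC) of 32851 RefSeq promoters. A promoter was found for 9 of the genes. Outside the heavy chains, that of B2m held an NF-kB type match 125 bases before its start site, and those of Tap1, Tapbp and Psmb8 held none of the 3 letter patterns. A match is a description of the letters and does not show that a factor binds. For the cyclic AMP response type only the exact letters TGACGC were searched. Related letters, such as TGACGT in H2-Q7, were not counted. The interferon type was searched only as GAANNGAAA, so other spacings, such as GAAACTGAAA in the B2m promoter, were not counted either. An unmarked stretch therefore does not show that such a site is absent.

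In miR139-KD cells, the 3 Q region chains H2-Q4, H2-Q6 and H2-Q7 rose, while the classical chains H2-K1 and H2-D1, B2m and the loading genes did not pass the test. The call rule is an adjusted p under 0.05 over all genes tested in edgeR's quasi-likelihood test with Benjamini-Hochberg adjustment. It was met by 3 of the 10 genes, all higher, where 2.72% of all 13295 genes tested were called (1.41% in the higher direction). The median log2 fold change was 0.1 over the 10 genes and 0.02 over all genes tested. That the H2-Q chains were called was known when the genes were chosen.

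H2-Q7 had 360 CPM in the lowest, 441 in the median and 536 in the highest of the 6 miR139-KD libraries, against 203, 246 and 359 CPM in NTC. The groups did not overlap, but the lowest miR139-KD library and the highest NTC library lay next to each other. On the log2 scale the fold change was 0.78 (SE 0.144, 95% interval 0.48 to 1.09), a 1.72-fold difference, at an edgeR adjusted p of 0.00967. H2-Q6 had a lowest, median and highest value of 305, 350 and 424 CPM in miR139-KD, against 194, 237 and 290 CPM in NTC. All 6 miR139-KD libraries lay above all 6 NTC libraries, with a log2 fold change of 0.58 (SE 0.124, interval 0.32 to 0.85, edgeR adjusted p = 0.0225).

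H2-Q4, the least abundant of the set, had 12.6, 17.9 and 36.7 CPM (lowest, median, highest) in miR139-KD, against 1.91, 7.62 and 9.34 CPM in NTC. The groups did not overlap here either, and the spread within miR139-KD was wide. Its log2 fold change was 1.69 (SE 0.405, interval 0.83 to 2.56, edgeR adjusted p = 0.0388). These values rest on 126 to 418 reads per library in miR139-KD and 25 to 126 in NTC. Of all genes tested, 1.65% were higher in miR139-KD with no overlap of the groups, and among the 10 genes these 3 were. H2-Q7 was called with each of the 12 libraries left out in turn (edgeR adjusted p from 0.00275 to 0.0271), though not under every other setting. H2-Q4 lost its call without any of NTC replicates 1 to 4 or miR139-KD replicates 2, 4, 5 and 6 (edgeR adjusted p from 0.0523 to 0.0881), and H2-Q6 without NTC replicate 2 or 3 or miR139-KD replicate 1 or 2 (0.0502 to 0.0569).

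Markers of other cell types also differed in this comparison. Of 8 B cell markers tested, 4 fell (Cd79a, Cd79b, Pax5 and Blnk). The sum over all 8 was 171 to 5715 CPM in miR139-KD and 1041 to 6623 CPM in NTC. It includes Ighm, which was not called, at 1414 ± 2144 CPM in miR139-KD and 1459 ± 2196 CPM in NTC. Of 6 megakaryocyte markers tested, 5 rose (Pf4, Gp9, Itga2b, Vwf and Itgb3). The sum over the 8 listed was 1170 to 2859 CPM in miR139-KD and 88.5 to 332 CPM in NTC. Of 3 T and NK cell markers tested, 1 fell (Lck). Of 12 HSC markers, 2 rose (Slamf1 and Gata2) and 1 fell (Cd34). No plasma cell, granulocyte, erythroid, or dendritic and macrophage marker passed. Summed plasma cell markers were 9607 and 2989 CPM in miR139-KD replicates 5 and 6 and 10487 CPM in NTC replicate 5, and at most 797 CPM in the other 9 libraries. The 2 highest H2-Q4 values, 29.1 and 36.7 CPM, were in these miR139-KD libraries, and the lowest, 1.91 CPM, in that NTC library. Without the 3 libraries together, H2-Q7 was still called (log2 fold change 0.80, edgeR adjusted p = 0.0488), while H2-Q6 (0.62, 0.0934) and H2-Q4 (1.05, 0.181) were not. The part of the B cell and megakaryocyte RNA in these differences was not tested. In bulk samples a change in the share of cells of a type and a change in RNA per cell cannot be told apart.

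The total over the 20 listed heavy chain genes did not differ beyond its error, with a log2 fold change of 0.03 (SE 0.0788, interval -0.14 to 0.2) between miR139-KD and NTC. Its make-up is described here without a test, and the H2-Q share restates the rise of the chains already called. H2-Q4, H2-Q6 and H2-Q7 together gave 12.5% to 17.5% of heavy chain CPM in miR139-KD (median 15.8%), against 8.82% to 10.2% in NTC (median 9.87%). H2-D1 gave 31.4% to 35.7% in miR139-KD (median 31.8%), against 36.4% to 42.3% in NTC (median 38.5%). The groups overlapped for neither share, but as parts of the same total the shares are not independent. For H2-K1 they overlapped, with 42% to 45.7% in miR139-KD and 42.1% to 47.7% in NTC. Summing H2-Q5, H2-Q6, H2-Q7 and H2-Q10 before the fit, which does not depend on how reads were split among these copies, gave a log2 fold change of 0.66 (SE 0.104, interval 0.43 to 0.88). This sum was chosen after seeing the data.

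**Figure D2:**
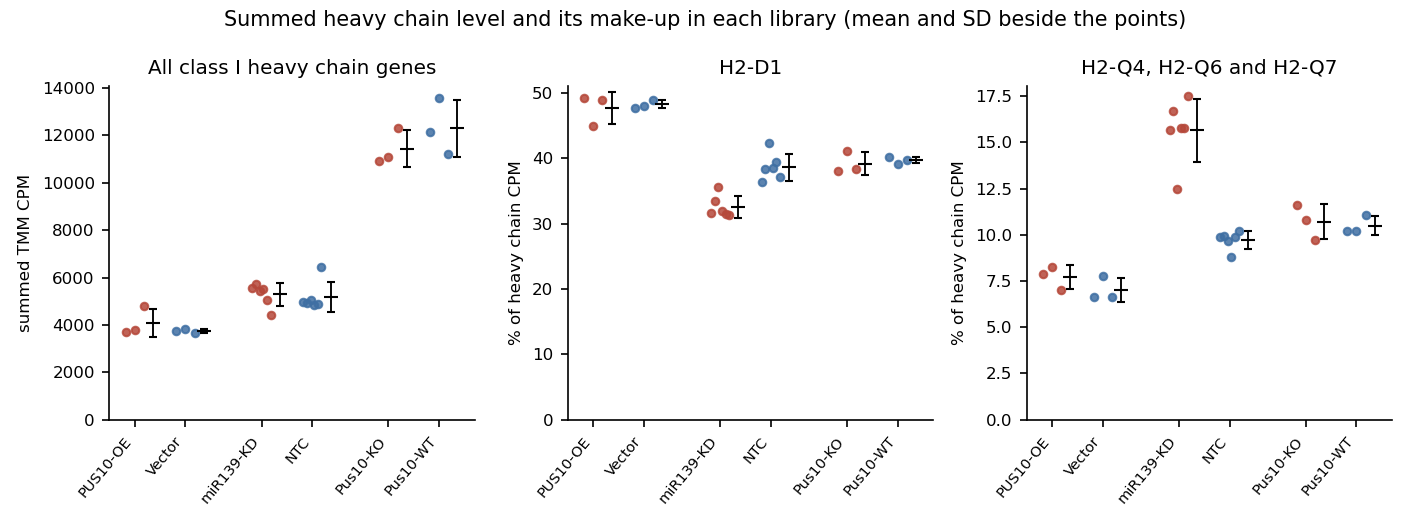
Summed TMM CPM of the 20 listed class I heavy chain genes (left), and the percentage of that sum from H2-D1 (middle) and from H2-Q4, H2-Q6 and H2-Q7 (right), for each library by group. Points are libraries and the bars beside them give mean and SD (n = 3, 6 and 3 per group). In the miR139-KD experiment the H2-Q share is 12.5% to 17.5% in miR139-KD and 8.82% to 10.2% in NTC, while the sums overlap.

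The classical chains were not called. H2-K1 had 1928, 2414 and 2526 CPM (lowest, median, highest) in miR139-KD, against 2125, 2219 and 2942 CPM in NTC. The miR139-KD values lay within the NTC range except for the lowest, and the interval of the log2 fold change (0.00, SE 0.0875) was -0.19 to 0.18. H2-D1 had 1394, 1756 and 1944 CPM in miR139-KD, against 1800, 1909 and 2387 CPM in NTC. In 4 of 6 miR139-KD libraries the level lay below the lowest NTC library, and the log2 fold change of -0.21 (SE 0.0911, interval -0.41 to -0.02) did not pass, with an edgeR adjusted p of 0.269. B2m had 2943, 3374 and 3689 CPM in miR139-KD, against 2720, 3087 and 3782 CPM in NTC, a log2 fold change of 0.09 (SE 0.0807, interval -0.08 to 0.27).

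Among the loading genes, Tap1 came closest to a call. It had 172, 217 and 291 CPM in miR139-KD, against 152, 170 and 188 CPM in NTC. The groups overlapped, and the log2 fold change was 0.38 (SE 0.121, interval 0.13 to 0.64, edgeR adjusted p = 0.117). Tap2, its partner in the transporter, had 42.6, 69.1 and 77.4 CPM in miR139-KD, against 66.2, 71.8 and 94.3 CPM in NTC, with a log2 fold change of -0.24 (SE 0.167, interval -0.6 to 0.12). Tapbp had a log2 fold change of 0.12 (SE 0.103, interval -0.1 to 0.34) and Psmb8 one of -0.18 (SE 0.108, interval -0.41 to 0.05), and the groups overlapped for both. DESeq2, another count model, called 4 of the 10 genes and 6.69% of all genes with an adjusted p. Its calls were the 3 H2-Q chains and Tap1, whose DESeq2 adjusted p rounds to 0.05.

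**Figure D3:**
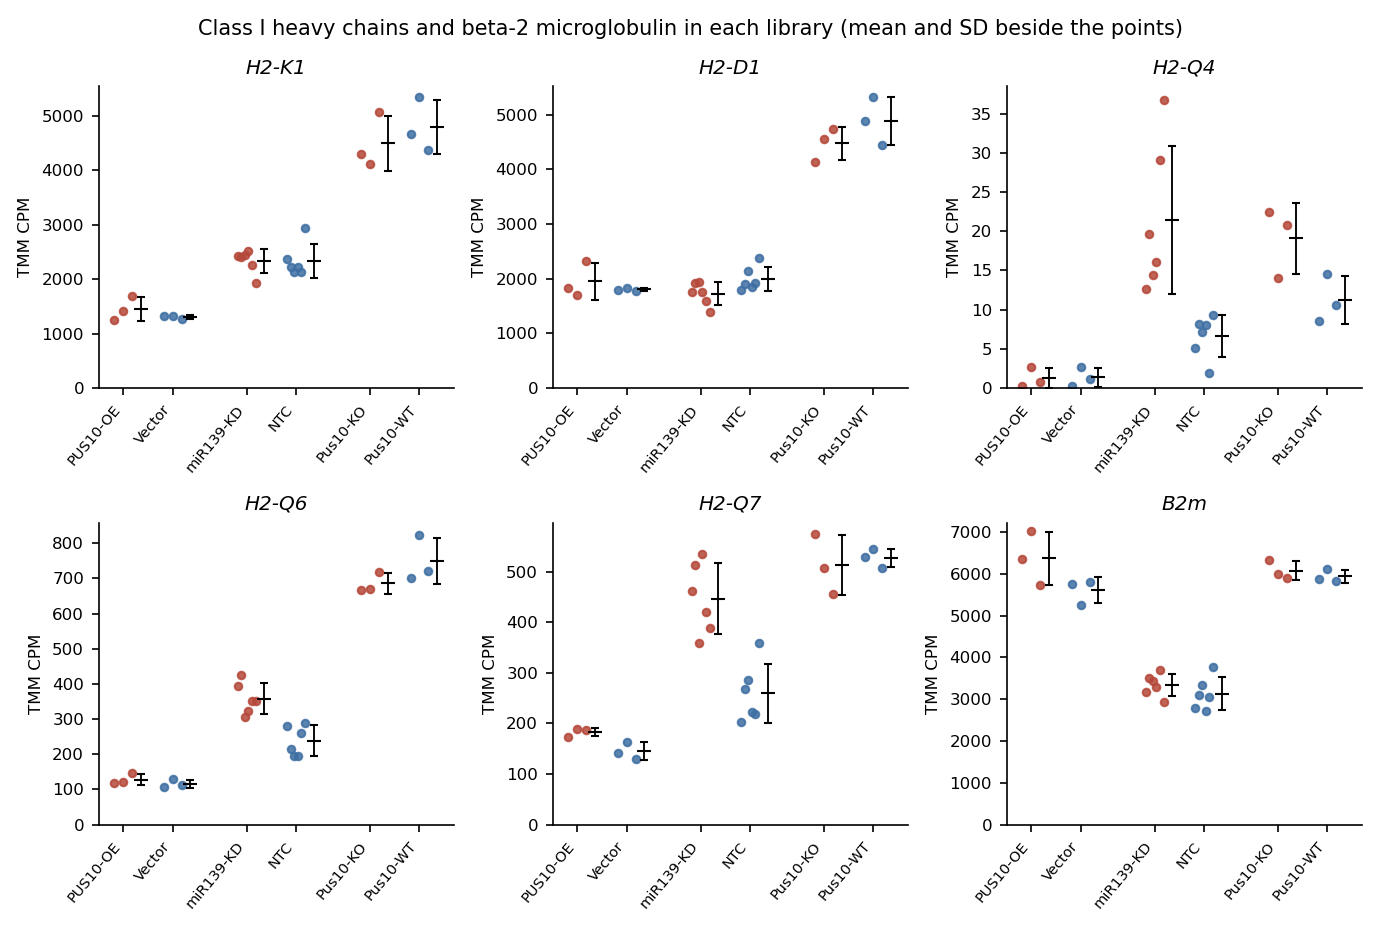
TMM CPM of the 5 heavy chain genes and B2m in each library (vertical axes start at 0), with mean and SD beside the points (n = 3, 6 and 3 per group). H2-Q4, H2-Q6 and H2-Q7 separate the 6 miR139-KD libraries from the 6 NTC libraries, and H2-K1, H2-D1 and B2m do not.

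Few genes of the wider pathway lists passed in miR139-KD. Of 6 further class I heavy chains tested, 0 passed, and those with the lowest p were H2-T22 (0.65 on the log2 scale, SE 0.185, edgeR adjusted p = 0.0817) and H2-T10 (0.90, SE 0.348, adjusted p = 0.209). These 2 were higher at an unadjusted p under 0.05 in edgeR, where 8.04% of all genes tested were. Of 11 other peptide loading and trimming genes, 1 fell. This was Pdia3 (ERp57), the disulfide isomerase that pairs with tapasin, at 357 ± 39.4 CPM in miR139-KD and 503 ± 54 CPM in NTC (SD, n = 6 each), with a difference of -0.50 on the log2 scale (SE 0.0943, edgeR adjusted p = 0.0116). Among regulators of class I promoters, Irf8, an interferon regulatory factor of myeloid and lymphoid cells, fell, and averaged 29.6 ± 15.1 CPM in miR139-KD and 85.6 ± 35.3 CPM in NTC (-1.53 on the log2 scale, SE 0.377, edgeR adjusted p = 0.0442).

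Of 9 interferon receptor and signalling genes, 1 fell, Ifnar2, a chain of the type I interferon receptor, with 50 ± 16.1 CPM in miR139-KD and 89.3 ± 14.1 CPM in NTC (-0.84 on the log2 scale, SE 0.195, edgeR adjusted p = 0.0346). Of 25 interferon response genes, 0 passed, with a median of 0.21, and those with the lowest p were Ifitm2 (0.34, adjusted p = 0.0683) and Ifitm3 (0.48, adjusted p = 0.156). None of 5 other immunoproteasome and PA28 genes, 3 constitutive catalytic subunits or 7 class I-like chains encoded outside the H2 complex passed. Their medians were 0.08, -0.1 and -0.29, and the lowest p in each belonged to Psme1 (0.16), Psmb7 (-0.30) and Cd1d1 (-0.72, adjusted p = 0.163).

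In PUS10-OE cells, none of the 10 genes passed the test, and 0% of the 14834 genes tested did. Pus10 itself did not pass (log2 fold change 1.76, SE 0.197, edgeR adjusted p = 0.278). The lack of a call in this comparison therefore does not show that a gene was unchanged. At an unadjusted p under 0.05 in edgeR, 1 of the 10 genes was found, where 8.19% of all genes were. DESeq2 called 0 of the 10 genes and 1.44% of all genes with an adjusted p, and limma-voom called 0 of either. The median log2 fold change was 0.1 over the 10 genes and 0.01 over all genes. H2-Q7, the gene with an unadjusted p under 0.05, had 173, 189 and 187 CPM in PUS10-OE, against 142, 164 and 129 CPM in Vector. All 3 PUS10-OE libraries were above all 3 Vector libraries, which held in the higher direction for 8.31% of all genes. The log2 fold change was 0.34 (SE 0.113, interval 0.08 to 0.6, edgeR adjusted p = 0.488).

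One library set the upper end of the classical chains. H2-K1 had 1249, 1418 and 1689 CPM in PUS10-OE, against 1329, 1321 and 1271 CPM in Vector, and H2-D1 had 1827, 1696 and 2334 CPM in PUS10-OE, against 1797, 1831 and 1784 CPM in Vector. PUS10-OE replicate 3 was the highest for both, and the other PUS10-OE libraries lay close to Vector. The log2 fold changes were 0.15 (SE 0.112, interval -0.11 to 0.41) for H2-K1 and 0.11 (SE 0.119, interval -0.16 to 0.39) for H2-D1. Without PUS10-OE replicate 3 they were 0.01 and -0.05. The summed heavy chains had a log2 fold change of 0.13 (SE 0.105, interval -0.12 to 0.37), and of -0.01 without that library. Psmb8 followed the same library, with 292, 263 and 369 CPM in PUS10-OE and 305, 294 and 276 CPM in Vector.

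B2m had 6366, 7014 and 5727 CPM in PUS10-OE, against 5762, 5264 and 5810 CPM in Vector, and here replicate 3 was the lowest of its group. The log2 fold change was 0.18 (SE 0.0902, interval -0.03 to 0.39). The transporter genes had lower means in PUS10-OE, within wide intervals. Tap1 had 68.1, 45.4 and 96.1 CPM in PUS10-OE, against 83, 104 and 58.5 CPM in Vector (log2 fold change -0.23, SE 0.295, interval -0.91 to 0.45). Tap2 had 21.3, 20 and 16.6 CPM in PUS10-OE, against 20.2, 29.2 and 20.5 CPM in Vector (-0.27, SE 0.216, interval -0.77 to 0.23). H2-Q6 (0.14, SE 0.125), Tapbp (-0.04, SE 0.115) and Psmb8 (0.08, SE 0.13) had intervals that span 0. H2-Q4 was near the limit of detection, with 0.267, 2.7 and 0.804 CPM in PUS10-OE and 0.289, 2.64 and 1.15 CPM in Vector, and its interval of -2.59 to 2.35 leaves its direction unknown.

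None of the genes in the wider lists passed in PUS10-OE either. Of 24 interferon response genes tested, 14 had an unadjusted p under 0.05 in edgeR, all of them higher, where 4.47% of all genes tested had such a p in that direction. Their median log2 fold change was 0.49. The lowest p belonged to Ifitm3 (0.67, edgeR adjusted p = 0.278) and Rtp4 (0.67, 0.337). Of 5 immunoproteasome and PA28 genes, 4 had a positive log2 fold change, and Psmb10 had the lowest p (0.32, SE 0.124, adjusted p = 0.559). The lowest p among the 6 further heavy chains belonged to H2-M3 (-0.32, SE 0.141, adjusted p = 0.619) and among 15 regulators to Relb (-1.02, SE 0.451, adjusted p = 0.625). Among 8 class I-like chains it belonged to Fcgrt (-0.59, SE 0.192, adjusted p = 0.473), among 11 loading and trimming genes to Tpp2 (-0.24, SE 0.135, adjusted p = 0.735), among 9 receptor and signalling genes to Ifnar2 (-0.35, SE 0.123, adjusted p = 0.508), and among the 3 constitutive subunits to Psmb7 (0.22, SE 0.0894, adjusted p = 0.586). Megakaryocyte markers summed to 275 to 469 CPM in PUS10-OE and 166 to 187 CPM in Vector, and their part in these values was not tested.

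In the libraries labelled Pus10-KO, none of the 10 genes passed, where 0.0614% of the 14657 genes tested in edgeR and 1.46% of those with an adjusted p in DESeq2 were called. At an unadjusted p under 0.05, 0 of the 10 genes were found, where 6.86% of all genes were. The median log2 fold change was -0.03 over the 10 genes and 0 over all genes. H2-K1 had 4296, 4107 and 5072 CPM in libraries labelled Pus10-KO, against 4669, 5341 and 4365 CPM in Pus10-WT (log2 fold change -0.09, SE 0.104, interval -0.34 to 0.15). H2-D1 had 4144, 4566 and 4732 CPM in libraries labelled Pus10-KO, against 4882, 5330 and 4455 CPM in Pus10-WT (-0.13, SE 0.0837, interval -0.32 to 0.07). The groups overlapped for both chains, and the summed heavy chains had a log2 fold change of -0.11 (SE 0.0813, interval -0.29 to 0.08).

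The H2-Q chains that rose in miR139-KD had no call in libraries labelled Pus10-KO. H2-Q7 had 575, 508 and 456 CPM in libraries labelled Pus10-KO, against 530, 544 and 508 CPM in Pus10-WT (log2 fold change -0.04, SE 0.107, interval -0.29 to 0.21). H2-Q6 had 668, 670 and 719 CPM in libraries labelled Pus10-KO, against 701, 823 and 722 CPM in Pus10-WT (-0.13, SE 0.0937, interval -0.34 to 0.09). H2-Q4 had 22.5, 14 and 20.8 CPM in libraries labelled Pus10-KO, against 8.53, 14.5 and 10.6 CPM in Pus10-WT (0.77, SE 0.38, interval -0.12 to 1.65, edgeR adjusted p = 0.795). Of these 3, H2-Q4 had the widest interval, and its groups overlapped through the library labelled Pus10-KO replicate 2.

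B2m had 6341, 5988 and 5905 CPM in libraries labelled Pus10-KO, against 5880, 6121 and 5826 CPM in Pus10-WT, and its log2 fold change of 0.03 had the narrowest interval of the 10 genes in this comparison (-0.09 to 0.16). Tapbp had 312, 311 and 354 CPM in libraries labelled Pus10-KO, against 297, 266 and 304 CPM in Pus10-WT. Its groups did not overlap, which held in the higher direction for 6.86% of all genes, and the log2 fold change was 0.17 (SE 0.108, interval -0.08 to 0.42). Tap1 had 248, 199 and 224 CPM in libraries labelled Pus10-KO, against 182, 175 and 205 CPM in Pus10-WT (0.26, SE 0.129, interval -0.04 to 0.56). Tap2 (-0.01, SE 0.274) and Psmb8 (-0.12, SE 0.137) had intervals that span 0.

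**Figure D4:**
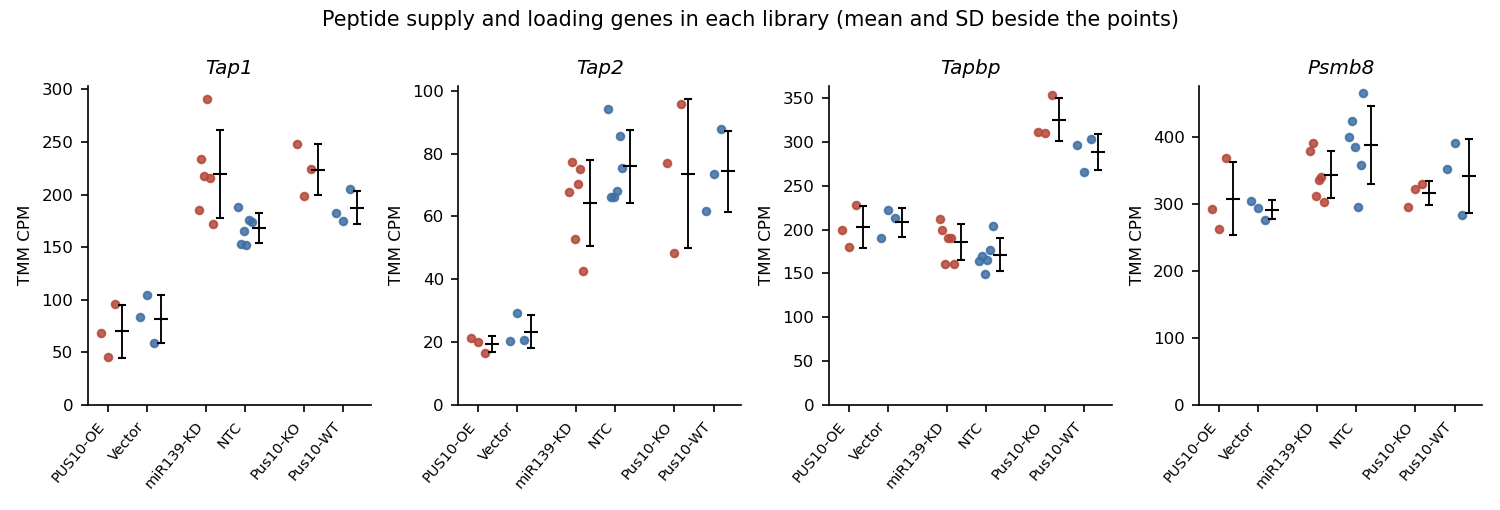
TMM CPM of Tap1, Tap2, Tapbp and Psmb8 in each library (vertical axes start at 0), with mean and SD beside the points (n = 3, 6 and 3 per group). The groups overlap for all 4 genes in each experiment, except for Tapbp in libraries labelled Pus10-KO and Pus10-WT.

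Lymphoid RNA differed strongly in the same libraries. B cell markers summed to 88.8 to 110 CPM in libraries labelled Pus10-KO and 5518 to 14700 CPM in Pus10-WT, and plasma cell markers to 243 to 354 CPM in libraries labelled Pus10-KO and 13602 to 16043 CPM in Pus10-WT. Cd79a, Ighm and Jchain fell, and no other marker passed. Erythroid markers summed to 426 to 5602 CPM in libraries labelled Pus10-KO and 280 to 1686 CPM in Pus10-WT. Granulocyte markers summed to 608 to 3887 CPM in libraries labelled Pus10-KO and 539 to 814 CPM in Pus10-WT. At an unadjusted p under 0.05 in edgeR, 5 of 7 erythroid markers were higher, where 3.53% of all genes tested were. The other 2, Klf1 (log2 fold change -1.34, SE 1.27) and Car1 (-1.71, SE 1.86), had lower means in libraries labelled Pus10-KO. In libraries labelled Pus10-KO, 4 of 8 B cell and 1 of 5 plasma cell markers were at 0 in all libraries, against 1 and 0 in Pus10-WT. B and plasma cells also express class I genes, and the part of their RNA, or of erythroid and granulocyte RNA, in the class I levels was not tested. No gene of the other pathway lists passed. The lowest p belonged to Mr1 (log2 fold change -1.08, edgeR adjusted p = 0.497) among 7 class I-like chains, to Pdia3 (-0.34, 0.559) and Calr (-0.47, 0.66) among 11 loading and trimming genes, to Rela (0.56, 0.603) and Nfyb (-0.82, 0.603) among 15 regulators, and to Ifngr1 (-0.51, 0.603) among 9 receptor and signalling genes. Among 25 interferon response genes it belonged to Zbp1 (-1.07, adjusted p = 0.65), among 8 further heavy chains to H2-M3 (-0.40, 0.811), among 5 immunoproteasome and PA28 genes to Psmb10 (0.25, 0.897), and among 3 constitutive subunits to Psmb6 (-0.16, 0.855).

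**Figure D5:**
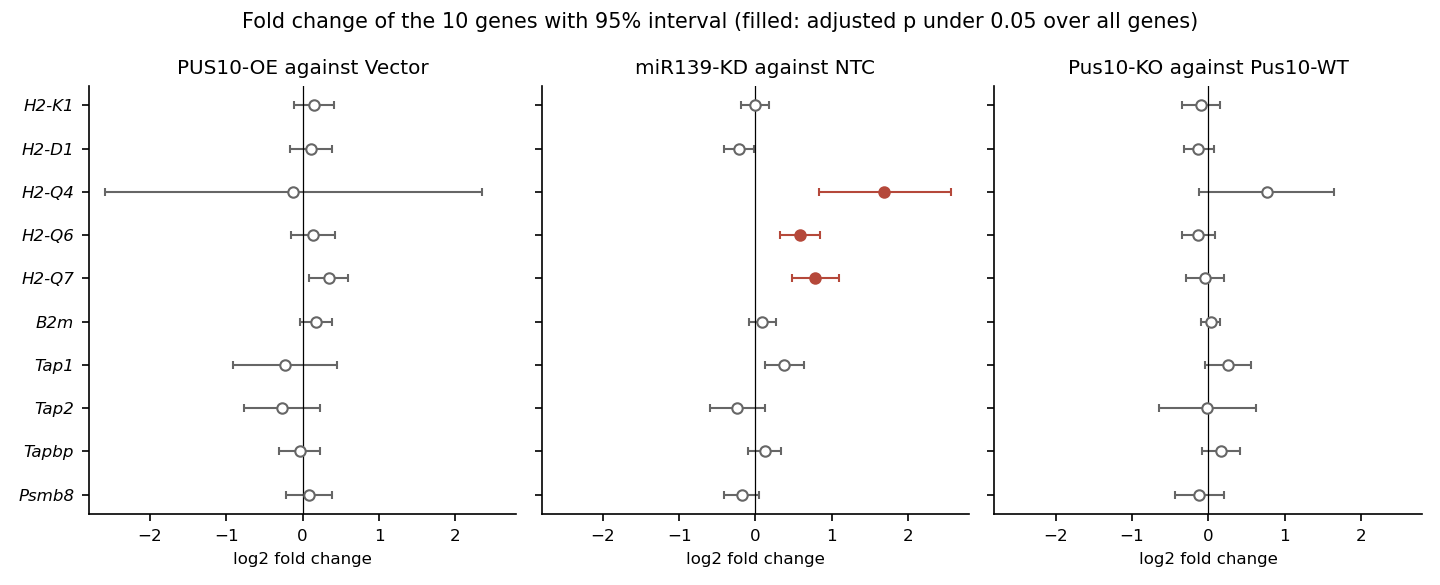
Log2 fold change of each gene with its 95% interval in the 3 comparisons, from edgeR's quasi-likelihood fit on all genes of each experiment. Filled points have an adjusted p under 0.05 over all genes, which holds for H2-Q4, H2-Q6 and H2-Q7 in miR139-KD against NTC and for no gene in the other comparisons.

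Whether the H2-Q response differed between the experiments was tested as a difference of log2 fold changes in 1 fit of all 6 groups. That the H2-Q chains were called in miR139-KD was known beforehand, which favours a difference. A difference between experiments also cannot be told apart from one in preparation. None of the 10 genes passed in edgeR for any of the 3 pairs of comparisons. The background was 0.0510% of 17664 genes for PUS10-OE minus miR139-KD, 0.0226% for Pus10-KO minus PUS10-OE and 0.294% for Pus10-KO minus miR139-KD. The smallest p-values in the last pair belonged to H2-Q6, with a difference of -0.68 (SE 0.182, interval -1.06 to -0.31, edgeR adjusted p = 0.142), and H2-Q7, with -0.79 (SE 0.213, interval -1.23 to -0.35, adjusted p = 0.144). DESeq2 called these 2 genes (adjusted p = 0.0219 for H2-Q6 and 0.0187 for H2-Q7), where it called 1.91% of genes. For PUS10-OE minus miR139-KD the differences were -0.42 for both H2-Q6 (SE 0.182, edgeR adjusted p = 0.508) and H2-Q7 (SE 0.212, 0.614). For H2-Q4 the intervals were wide (-3.63 to 0.06 for PUS10-OE minus miR139-KD, and -2.71 to 0.92 for Pus10-KO minus miR139-KD).

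Within groups, the genes varied together to different degrees. After each library's log2 CPM was set against the mean of its own group, the highest Pearson correlation over the 24 libraries was that of H2-K1 with H2-D1 (r = 0.74), followed by H2-D1 with Psmb8 (0.65). H2-Q6 and H2-Q7, which were both called in miR139-KD, had r = 0.21, and B2m with Tap1 had -0.2. B2m also had the lowest correlation with the mean of the others (0.23), and H2-K1 the highest (0.72). These values are descriptions, since libraries differ in depth and in RNA of other cells, and H2-Q4 was too low to enter. The genes outside the set most like its mean, among 9184 compared, were Coro1a (r = 0.89), Rela (0.81), Cd63-ps (0.80), Rac2 (0.79) and Gmpr (0.78).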

How the data were processed

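RNA sequencing by Smart-seq2 was done on 24 libraries of sorted mouse HSCs. The authors deposited raw counts per gene as whole numbers, without normalization. The submitters' processing notes name HISAT2 2.1.0, HTSeq 0.11.2 and the mm10 build. Which annotation was counted is not given in the sources. GENCODE M21 (GRCm38) gave symbols to 55394 of 55487 IDs. The 5 summary entries were left out. Reads in no gene made up 3.7% to 12% per library, and ambiguous reads 6.53% to 20.1%. The deposited files list 0 reads aligned to several places, so reads shared by copies of a gene may be missing from its count.

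Library totals over genes were 9.87 M to 47.3 M (mega). There are no molecular identifiers, so counts are not molecules. Among 42 pairs of libraries within groups, the lowest chi-square per degree of freedom was 31.9, so no library was a repeat. The labels do not state separate animals, and the spread behind the p-values may be technical.

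The 2 groups of each comparison were fitted alone, using edgeR 4.0.16 under R 4.3.3 (filterByExpr, TMM, robust quasi-likelihood F test, two-sided, Benjamini-Hochberg adjustment over all genes tested, calls at an adjusted p under 0.05). Standard errors came from the log2 fold change and F, and 95% intervals from the t quantile of the fit. Alternatives were DESeq2 1.42.0, limma-voom (limma 3.58.1) with quality weights, other scalings, no filter, 1 fit of all 6 groups, a block by replicate number, summed heavy chains and each library left out. Heavy chain sums covered 20 listed genes, and H2-Q5 was not among them. The fits were tested on simulated counts. The named genes are the 10 members and, from each of the pathway lists, the genes called, or those with the lowest p; 1 regulator is not reported here. Likeness used log2 CPM with a prior count of 2 and genes with a mean of at least 3. Members and lists were chosen with earlier results of these data known. Figures used matplotlib 3.10.9 in Python 3.11.15.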

Additional observations from a re-analysis of the deposited data

Results flagged for a closer look

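Among 34 sets of values in groups of 6 libraries, 4 had a single library far from the other 5, where chance gives about 1 in 20. NTC replicate 6 had 2942 CPM of H2-K1, while the other NTC libraries had 2125 to 2362 CPM. The same library had a summed heavy chain level of 6439 CPM, while the others had 4822 to 5051 CPM. It was also the NTC library with the lowest mean correlation with its group (0.851). In miR139-KD replicate 3, H2-Q4, H2-Q6 and H2-Q7 gave 12.5% of heavy chain CPM, against 15.7% to 17.5% in the other miR139-KD libraries. In miR139-KD replicate 4 the ratio of H2-Q7 to H2-Q6 was 1.66, against 1.1 to 1.21 in the other miR139-KD libraries.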

How the results depend on the processing

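Of 491 values set against those of the 10 genes under alternatives, 445 kept the direction and the side of the threshold, 24 turned the direction, 21 lost a call and 1 gained one. They include the summed heavy chains and the sum of H2-Q5, H2-Q6, H2-Q7 and H2-Q10, each set against single chains. Some of the turned values and lost calls come from such sums. None of the turned values was a called difference. No genes of the set were called in PUS10-OE or libraries labelled Pus10-KO under any alternative run. In miR139-KD, 1 of the set was called with the replicate block (H2-Q6), where H2-Q7 (0.80, adjusted p = 0.0576) and H2-Q4 (1.68, 0.121) were not, 1 without the 3 libraries high in plasma cell markers, and 1 to 3 with a single library left out. H2-Q4 also lost its call without a filter (adjusted p = 0.0614) and with all 6 groups in 1 fit (0.0664). Over all genes, DESeq2 called 248 in PUS10-OE, 1083 in miR139-KD and 237 in libraries labelled Pus10-KO, and the fit of all 6 groups 5, 792 and 15. The block called 188 genes in miR139-KD and 2 in libraries labelled Pus10-KO, and limma-voom 3 in libraries labelled Pus10-KO. With single libraries left out, 196 to 340 were called in miR139-KD and 0 to 10 in libraries labelled Pus10-KO. Leaving out the least correlated library of each group gave 212, and leaving out the libraries high in plasma cell markers 201; both were chosen after seeing the data. Same-numbered libraries did not deviate together (r from -0.1 to 0.01), which does not settle whether the numbers pair the samples. Summed plasma cell markers were highest in replicate 5 of both NTC (10487 CPM) and miR139-KD (9607 CPM). H2-Q4 had the same order by replicate number in PUS10-OE and Vector. H2-K1 in miR139-KD, near 0 throughout, turned to 0.05 with limma-voom, 0.00 with the replicate block, 0.03 summed with the other heavy chains, 0.07 without the least correlated libraries and 0.04 without those high in plasma cell markers. The summed heavy chains also stood at 0.03 against the negative, uncalled value of H2-D1 in miR139-KD, at 0.13 against H2-Q4 in PUS10-OE and at -0.11 against H2-Q4 in libraries labelled Pus10-KO. Tap2 in libraries labelled Pus10-KO was 0.01 with all 6 groups. With single libraries left out, log2 fold changes in PUS10-OE ran from -1.35 to 0.8 for H2-Q4, -0.15 to 0.04 for Tapbp, -0.54 to 0.00 for Tap1, -0.05 to 0.2 for H2-D1, -0.09 to 0.18 for Psmb8 and -0.01 to 0.19 for the summed heavy chains. In miR139-KD they ran from -0.03 to 0.08 for H2-K1, and in libraries labelled Pus10-KO from -0.25 to 0.22 for Tap2 and -0.13 to 0.04 for H2-Q7. For the difference of Pus10-KO minus miR139-KD, DESeq2 called 2 of the set, and edgeR 0 to 1 with single libraries left out. The cause of these changes was not tested. H2-Q4 rests on few reads in the PUS10-OE experiment, with 11 to 127 per library.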
